A study of Mus musculus with 72 samples.

Results

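Livers of the daughters of IVF-conceived males were compared with livers of the daughters of naturally conceived males, across all genes measured by RNA-Seq. The libraries were taken by their labels and are 11 of the 72 samples of the series, 5 naturals and 6 IVF, all from F2 females at 12 weeks of age. The F2 animals of both groups were conceived by mating, to wild-type CF-1 females, and differed in how their sires had been conceived. The F1 sires of the IVF group came from eggs of superovulated CF-1 females that were fertilised in vitro with sperm of SJL/B6 males carrying GFP or not, and from embryos grown in KSOM medium with amino acids to blastocysts and transferred. The F1 sires of the naturals came from mating the same kinds of mice. A piece of each liver was frozen and used. The litter and the sire of each animal are not given, so the p-values below measure the spread between these samples. Some may be littermates or share a sire. Conception differed between sires, so the daughters may not be independent replicates of it. The design description of the series gives fewer female livers than its labels do. Expression is given as CPM, the counts of a gene relative to the size of its library, scaled between samples with the TMM method of edgeR. CPM are not divided by transcript length, so levels were compared between samples and not between genes.

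The liver makes cholesterol from acetyl-CoA through the mevalonate pathway, whose enzymes are transcribed together under SREBP-2 when sterols in the cell are low. It makes fatty acids and triglycerides under SREBP-1c, LXR and carbohydrate signals, exports them on apolipoproteins, stores and releases glucose, and secretes most proteins of the plasma. In bulk liver RNA, fewer cells of a type and less RNA per cell cannot be told apart.

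The samples of the groups also differed in technical measures. Total counts ranged from 3947645 to 34149676 in naturals and from 13815244 to 90441392 in IVF. The mean difference, 1.66 on the log2 scale, did not pass (two-sided exact permutation test over all splits, n = 5 and 6, p = 0.0606, adjusted p = 0.0606 over 3 tests). By the read statistics of the study, every natural liver was mapped at a lower rate than every IVF liver, and natural 2 was the natural closest to IVF. The GC contrast of a sample is the median log2 CPM of the quartile of genes richest in GC minus that of the poorest quartile. It was -1.36, -0.82, -1.25, -1.12 and -1.38 in naturals 1 to 5 and 0.39, -0.08, 0.32, 0.16, 0.52 and 0.55 in IVF 1 to 6. The groups did not overlap, with natural 2 and IVF 2 nearest to each other. The mean was -1.18 ± 0.23 (SD, n = 5) in naturals and 0.31 ± 0.24 (SD, n = 6) in IVF. The difference of 1.49 was larger than the spread between samples (two-sided exact permutation, p = 0.00216, adjusted p = 0.00325 over 3 tests), with the lowest p that can be had from 5 and 6 samples. Mapping rate and GC contrast follow the groups and their part in the differences below was not tested. The main counts are therefore given with fits that take them into account.

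**Figure D1:**
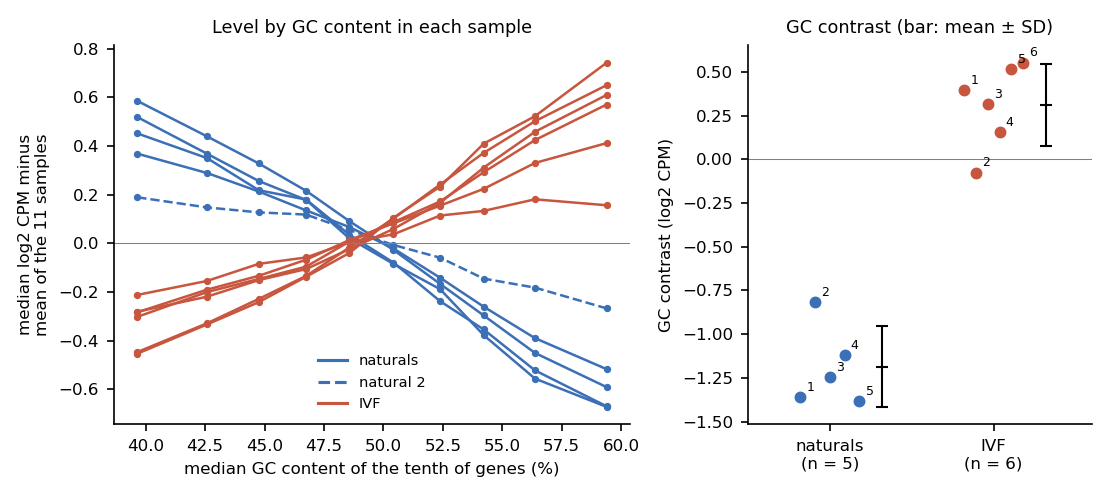
The left panel plots the median log2 CPM of the genes in each decile of GC content, relative to their mean over the 11 samples, as 1 line for each sample against the median GC content of the decile in percent. The right panel plots the GC contrast of each sample in log2 CPM, with replicate numbers beside the points and the mean and SD of each group. Natural lines fall and IVF lines rise with GC content, and natural 2, the dashed line, with a contrast of -0.82, falls least among naturals.

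The libraries matched their label as female liver. Xist, the RNA that coats the inactive X chromosome, was at 349, 369, 332, 312 and 441 CPM in naturals 1 to 5 and between 171 and 269 CPM (median 219) in IVF. The Y-linked Ddx3y, Uty, Kdm5d and Eif2s3y had 0 counts in all 11 libraries, which allows up to 3 counts, or 0.914 CPM in natural 1, the smallest library. The 10 hepatocyte markers were all detected. Their summed level was 190881 to 281702 CPM in naturals and 132416 to 160459 CPM in IVF, with no overlap. Alb alone held 57.3% to 73.2% of that sum. The other 9 summed to 54354 to 75439.5 CPM and 49744 to 68564 CPM, with overlap, and of the 10 only Alb and Ttr were apart between the groups.

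By the quasi-likelihood test of edgeR, 4935 of 12525 genes tested (39.4%) were differentially expressed (DEGs), which here means that they changed over 1.5-fold with a p under 0.05 after Benjamini-Hochberg adjustment. Of these, 2701 (21.6% of genes tested) were upregulated in IVF and 2234 (17.8%) were downregulated. The groups did not overlap for 3685 genes (29.4%). The first principal component held 45.4% of the variance of log2 CPM and parted the groups, with natural 2 the natural closest to IVF, and the second component, with 16.7%, did not part them. The split by conception held 39.1% of the variance, against a median of 8.42% when the samples were split in every possible way (one-sided exact permutation, p = 0.00216, adjusted p = 0.00325 over 3 tests), again with the lowest p possible.

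The direction of change followed the base composition of the transcript. In the quartile of genes poorest in GC (31.0% to 44.8%), 44.9% were downregulated and 0.721% upregulated, with a median log2 fold change of -0.61. In the richest quartile (54.2% to 72.8%), 57.6% were upregulated and 1.67% downregulated, with a median of 0.88. Across the 12208 genes of known GC content, which are not independent replicates and share their libraries, Spearman's rho between GC content and log2 fold change was 0.71. With transcript length it was -0.19.

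Fits that take GC content or mapping rate into account, or that leave out naturals of low mapping rate, gave fewer DEGs. Removing the trend of each sample with GC content, which also takes away any change of the tissue that follows GC, gave 2246 DEGs, 1030 upregulated (8.44% of 12208 genes) and 1216 downregulated (9.96%). Of the 4935 DEGs, 1548 were called in the same direction and 3 in the opposite one. A joint fit of the livers of both sexes with mapping rate as a covariate gave 2083 DEGs (8.51% of 13073 genes upregulated, 7.43% downregulated), of which 1941 were among the 4935. With the livers mapped at 60% or more, which are naturals 2, 4 and 5 and all IVF, 18.1% of 13133 genes were upregulated and 14.7% downregulated. With natural 2 as the only natural, whose spread then has to be assumed equal to that of the IVF livers, 157 of 14124 genes were DEGs (0.623% upregulated, 0.489% downregulated), of which 143 were among the 4935.

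Across the main test and these 4 fits, 76 genes (0.607% of genes tested) were DEGs in the same direction each time, 45 upregulated and 31 downregulated. They were selected on these samples, so their values are a description. The fit with 1 natural has little power and limits their number, so genes outside the 76 need not have changed less. Pgls, which is outside, had a log2 fold change of 2.01 in that fit, and Nr1h2, which is inside, one of 1.54. The 10 upregulated genes of smallest p included Nr1h2, which encodes the oxysterol receptor LXR beta, Tspo, a cholesterol-binding protein of the outer mitochondrial membrane, Naprt, the first enzyme of NAD synthesis from nicotinic acid, Abcb8, a mitochondrial ABC transporter, and Dvl1, a transducer of Wnt signals. The others were Scrn2, Fam73b, Lrp10, Apba3 and Tmem120a. Nr1h2 (chromosome 7, 44549616 to 44553968, GRCm38) was at 13.4, 17.4, 12.99, 12.6 and 14.5 CPM in naturals 1 to 5 and between 35.4 and 56.4 CPM (median 52.8) in IVF. All naturals lay together below all IVF livers. Nr1h2 changed by a log2 fold of 1.80 ± 0.15 (SE, adjusted p = 9.28e-06) and 0.70 with the GC trend removed. Tspo (chromosome 15, 83563573 to 83574203) was at 2.44, 4.66, 3.39, 2.52 and 4.72 CPM in naturals 1 to 5 and between 14.5 and 34.9 CPM (median 27.8) in IVF. No natural reached the lowest IVF liver. For Tspo the log2 fold change was 2.80 ± 0.26 (SE, adjusted p = 1.33e-05), 1.81 with the GC trend removed and 2.52 with natural 2 as the only natural. Naprt was at 19.5, 32.01, 20.6, 32.02 and 24.4 CPM in naturals 1 to 5 and between 74.2 and 146 CPM (median 122) in IVF, again with no overlap. Naprt had a log2 fold change of 2.16 ± 0.20 (SE, adjusted p = 1.33e-05). The other 7 had log2 fold changes between 1.54 for Tmem120a and 2.22 for Abcb8. The transcripts of the 10 held 56.7% to 60.8% GC. None of the 10, chosen on these values, overlapped between the groups, as was the case for 29.4% of all genes.

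The 10 downregulated genes of smallest p among the 76 have known roles as follows. Smc3 is a subunit of the cohesin ring, Atrx a chromatin remodeller of heterochromatin, Taf1d a subunit of the factor that starts ribosomal RNA transcription, Psip1 a chromatin reader, Epc2 and Jade1 subunits of histone acetyltransferase complexes, Rbbp6 a ubiquitin ligase and Rbm26 an RNA-binding protein. Mllt10 is a cofactor of histone H3 methylation, and Sgpp1, outside the nucleus, removes phosphate from sphingosine-1-phosphate. Smc3 (chromosome 19, 53600396 to 53645831) was at 109, 52.6, 85.3, 67.5 and 84.8 CPM in naturals 1 to 5 and between 22.3 and 27.8 CPM (median 23.9) in IVF. The IVF livers lay close together, and natural 2 was the natural nearest to them. Smc3 changed by a log2 fold of -1.68 ± 0.16 (SE, adjusted p = 1.33e-05), and -1.09 with the GC trend removed. Atrx (chromosome X, 105797615 to 105929372) was at 116, 70.2, 101, 80.1 and 106 CPM in naturals 1 to 5 and between 28.1 and 41.3 CPM (median 34.5) in IVF. Natural 2 was again the lowest natural and above every IVF liver. For Atrx the log2 fold change was -1.46 ± 0.15 (SE, adjusted p = 1.33e-05), and -0.71 with the GC trend removed. The other 8 had log2 fold changes between -1.70 for Taf1d and -1.15 for Mllt10, and the 10 transcripts held 36.2% to 46.5% GC. Sltm, a SAFB-like transcription modulator and another of the 31, was at 172, 62.6, 163, 104 and 101 CPM in naturals 1 to 5 and between 26.4 and 33.0 CPM (median 29.6) in IVF, and it fell with a log2 fold change of -2.01.

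Alb (chromosome 5, 90460870 to 90476602), the gene for albumin, was also one of the 31. It was at 182652, 206263, 145561, 161993 and 136527 CPM in naturals 1 to 5 and between 80772 and 102785 CPM (median 89113) in IVF. Natural 2, the natural mapped best, was the highest of all 11, and no IVF liver reached a natural. Alb had a log2 fold change of -0.89 ± 0.14 (SE, adjusted p = 1.36e-04), -0.71 with the GC trend removed and -1.18 with natural 2 as the only natural. Alb took 12.1% to 19.7% of all counts in naturals and 8.90% to 11.5% in IVF.

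**Figure D2:**
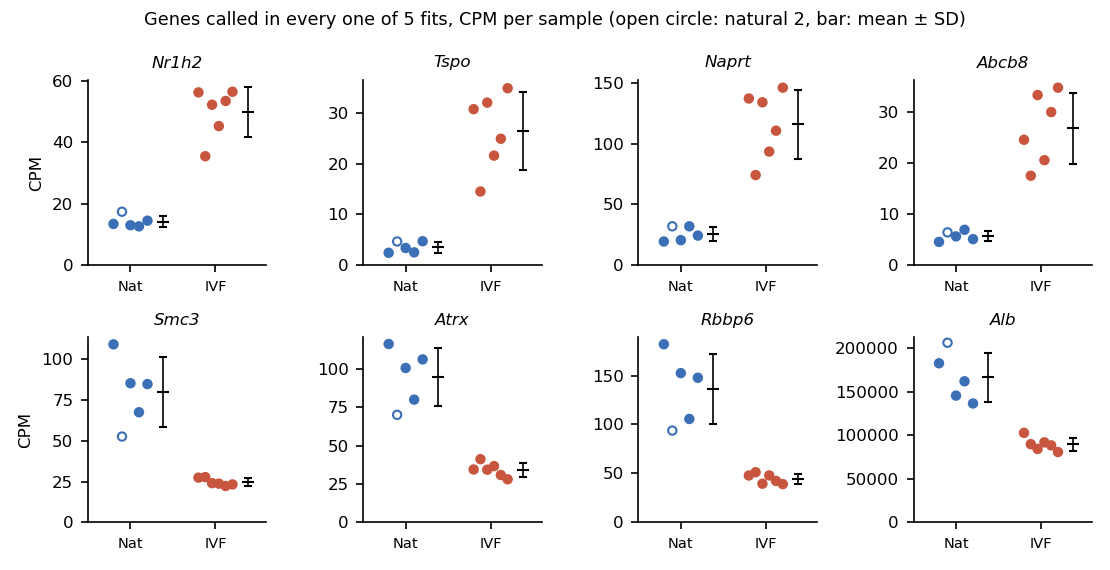
Points are CPM in each sample for 8 genes that were DEGs in the same direction in all 5 fits, for naturals (Nat, n = 5, natural 2 as an open circle) and IVF (n = 6), and bars are the mean and SD. All axes start at 0. The groups do not overlap for any of the 8 genes, which were chosen on these samples, and for 29.4% of all genes. For Smc3, Atrx and Rbbp6 natural 2 is the natural closest to IVF.

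Genes of smallest p that were apart between the groups but not called in every fit were Pgls, an enzyme of the pentose phosphate pathway, upregulated, and Ppp1r12a, the targeting subunit of myosin phosphatase, Nab1, a transcriptional corepressor, and Ankhd1, downregulated. Their log2 fold changes were 2.24, -1.30, -1.29 and -1.44. Removing the GC trend gave 1.37, -0.57, -1.08 and -1.14, and the change of Ppp1r12a was then under 1.5-fold.

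The lists below are read against the shares of all genes, 21.6% upregulated and 17.8% downregulated. With the GC trend removed these shares were 8.44% and 9.96%, and in the joint fit 8.51% and 7.43%. Cholesterol synthesis genes moved in both directions. Of 20 enzymes tested, 8 were downregulated (Hmgcs1, Idi1, Fdft1, Sqle, Cyp51, Msmo1, Nsdhl and Sc5d), or 40% against 17.8% of all genes. Another 3 (15%, against 21.6%) were upregulated (Mvk and Tm7sf2 among them) and 9 did not pass. The median log2 fold change was -0.30 against -0.01 over all genes. The 8 span the pathway from HMG-CoA synthase, which makes the precursor of mevalonate, to Sc5d, a late step of the sterol ring. Promoters of 4 of these genes are shown, since the enzymes are known targets of SREBP-2, which binds sterol regulatory elements with the help of NF-Y at CCAAT boxes. They are the 250 bases before the RefSeq start on the gene's own strand, GRCm38.p6, 5′ to 3′, from chr13:119690101-119690350 (+) for Hmgcs1, chrX:72918271-72918520 (+) for Nsdhl, chr9:42264301-42264550 (-) for Sc5d and chr5:114444019-114444268 (+) for Mvk, which was upregulated. Capitals mark matches, on either strand, to TCACNCCAC (a form of the sterol element), to the E-box CACGTG and to ATTGG, the CCAAT box read on its other strand.
Hmgcs1: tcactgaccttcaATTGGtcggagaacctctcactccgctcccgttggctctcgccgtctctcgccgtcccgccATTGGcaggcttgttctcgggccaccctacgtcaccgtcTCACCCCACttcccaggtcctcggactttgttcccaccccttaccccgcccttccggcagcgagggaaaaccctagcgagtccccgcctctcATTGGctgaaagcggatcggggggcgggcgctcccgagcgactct
Nsdhl: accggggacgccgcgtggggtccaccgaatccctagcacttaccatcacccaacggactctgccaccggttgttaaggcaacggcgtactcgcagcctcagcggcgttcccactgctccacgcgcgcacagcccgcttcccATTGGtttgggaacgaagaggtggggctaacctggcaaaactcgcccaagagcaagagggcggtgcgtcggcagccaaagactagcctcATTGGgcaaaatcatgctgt
Sc5d: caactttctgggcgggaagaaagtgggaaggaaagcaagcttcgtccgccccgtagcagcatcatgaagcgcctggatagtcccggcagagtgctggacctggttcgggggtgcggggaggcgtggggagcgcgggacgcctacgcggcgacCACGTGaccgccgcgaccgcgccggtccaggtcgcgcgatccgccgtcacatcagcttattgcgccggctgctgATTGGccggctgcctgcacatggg
Mvk: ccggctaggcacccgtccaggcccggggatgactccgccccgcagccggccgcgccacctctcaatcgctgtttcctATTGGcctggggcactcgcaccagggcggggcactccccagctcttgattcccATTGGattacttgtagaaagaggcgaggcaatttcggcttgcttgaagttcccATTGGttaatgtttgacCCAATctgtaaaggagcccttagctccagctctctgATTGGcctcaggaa

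TCACNCCAC was found in Hmgcs1 alone among these 4, at 137 bases before the start, and the E-box in Sc5d alone. Other forms of the sterol element were not searched. ATTGG was found in all 4, with 3 copies in Hmgcs1 and 5 in Mvk. Over the 15 of 20 pathway genes with a promoter in the table, 1 held TCACNCCAC, 3 held CACGTG and 14 held ATTGG (93.3%). Over the 9535 tested genes with a promoter these shares were 1.39%, 9.88% and 40.6%. Of the 6 downregulated genes with a promoter, all 6 held ATTGG, as did Mvk.

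Hmgcs1 (chromosome 13, 119690351 to 119708260), HMG-CoA synthase, was at 319, 309.7, 338, 344 and 149.7 CPM in naturals 1 to 5 and between 78.4 and 176 CPM (median 107) in IVF. Naturals 1 to 4 lay together above all IVF livers, and natural 5 lay within the IVF range. Hmgcs1 changed by a log2 fold of -1.28 ± 0.25 (SE, adjusted p = 7.07e-04). Idi1, which isomerises the isoprene unit, was at 14.6, 11.3, 15.8, 18.3 and 9.24 CPM in naturals 1 to 5 and between 2.22 and 5.69 CPM (median 4.34) in IVF. The groups did not overlap. For Idi1 the log2 fold change was -1.70 ± 0.25 (SE, adjusted p = 7.14e-05). Cyp51, the lanosterol demethylase, was at 133, 137, 312, 312 and 83.5 CPM in naturals 1 to 5 and between 27.1 and 74.2 CPM (median 40.6) in IVF. Naturals 3 and 4 were highest and natural 5 lowest of the naturals, and still above every IVF liver. Cyp51 had a log2 fold change of -2.11 ± 0.38 (SE, adjusted p = 7.41e-04). Nsdhl, which removes the C4 carboxyl group of sterols, was at 54.9, 37.3, 101, 75.4 and 37.8 CPM in naturals 1 to 5 and between 8.27 and 22.5 CPM (median 15.5) in IVF. It fell without overlap, and naturals 2 and 5 were its lowest naturals. Nsdhl changed by a log2 fold of -1.97 ± 0.29 (SE, adjusted p = 1.36e-04). Sc5d, the sterol desaturase, was at 405, 339, 451, 438 and 404 CPM in naturals 1 to 5 and between 154 and 225 CPM (median 206) in IVF, with little spread within either group. For Sc5d the log2 fold change was -1.02 ± 0.13 (SE, adjusted p = 3.17e-05). Sqle, squalene epoxidase, was at 30.5, 51.1, 63.2, 56.6 and 10.9 CPM in naturals 1 to 5 and between 8.55 and 27.3 CPM (median 13.05) in IVF, and natural 5 lay below the median of IVF. Sqle had a log2 fold change of -1.41 ± 0.47 (SE, adjusted p = 0.0292). Msmo1, the C4 methyl oxidase, overlapped in the same way, with natural 5 at 39.6 CPM and IVF up to 55.4 CPM, and its log2 fold change was -1.13. Fdft1, squalene synthase, had a log2 fold change of -0.70.

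The remaining enzymes varied. Tm7sf2, a sterol reductase, was at 23.2, 38.9, 34.2, 49.1 and 19.7 CPM in naturals 1 to 5 and between 29.7 and 106 CPM (median 90.6) in IVF. IVF 2 lay among the naturals and the other 5 IVF livers above them. Tm7sf2 changed by a log2 fold of 1.35 ± 0.32 (SE, adjusted p = 0.00359). The log2 fold change of Fdps, farnesyl diphosphate synthase, was 0.10, of Ebp 0.21, Pmvk 0.13, Hsd17b7 -0.19, Lss -0.43, Acat2 -0.35 and Dhcr7 0.50, and none of these passed. The 8 downregulated transcripts held 41.9% to 51.8% GC and those of Mvk and Tm7sf2 56.3% and 51.0%.

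With the GC trend removed, 6 were downregulated (Hmgcs1, Idi1, Fdft1, Cyp51, Nsdhl and also Mvd) and Tm7sf2 was upregulated, with a median of -0.42 against 0.01 over all genes. The log2 fold change of Mvd, the decarboxylase of the mevalonate branch, turned from 0.12 to -0.83. In the joint fit with mapping rate 7 were downregulated (Hmgcs1, Idi1, Fdft1, Cyp51, Msmo1, Nsdhl and Sc5d) and none upregulated by edgeR's test. Hmgcs1, Idi1, Fdft1, Cyp51 and Nsdhl were thus called in the main test and in both of these fits. With natural 2 as the only natural their log2 fold changes were -1.35, -1.40, -0.72, -1.59 and -1.25, with adjusted p from 0.0675 to 0.184, so that none passed there.

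**Figure D3:**
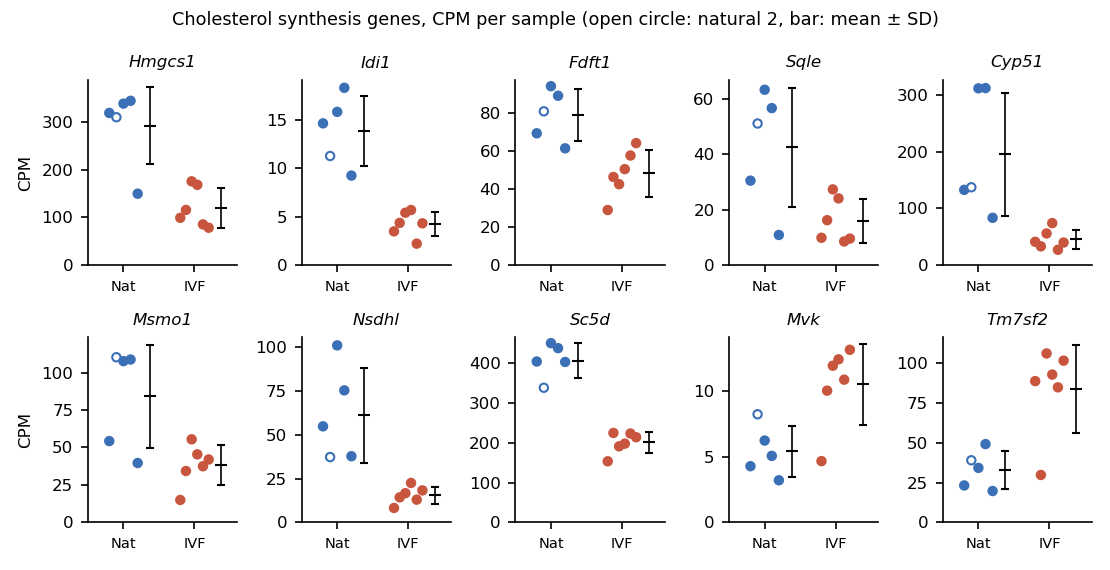
Points are CPM in each sample for 10 cholesterol synthesis genes, for naturals (Nat, n = 5, natural 2 as an open circle) and IVF (n = 6), and bars are the mean and SD. All axes start at 0. The groups do not overlap for Idi1, Cyp51, Nsdhl and Sc5d, 4 of the 20 enzymes tested, and for 29.4% of all genes.

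Among 22 genes of sterol sensing, uptake and efflux, 10 were upregulated (45.5%, against 21.6% of all genes). By edgeR's test none of the 22 was downregulated, and the median was 0.45. The 10 were the regulators Srebf1, Srebf2, Scap, Nr1h2 and Nr1h3, the receptors Lrp1 and Scarb1, the lysosomal carrier Npc2, and Lcat and Pltp, which remodel lipoproteins. Srebf2, the gene for SREBP-2, was at 18.3, 41.3, 21.5, 24.1 and 14.7 CPM in naturals 1 to 5 and between 39.7 and 67.5 CPM (median 44.3) in IVF. Natural 2 lay within the IVF range and the other naturals below it. For Srebf2 the log2 fold change was 1.01 ± 0.24 (SE, adjusted p = 0.00251). Srebf1, the gene for SREBP-1, was at 79.2, 131, 19.2, 33.8 and 91.2 CPM in naturals 1 to 5 and between 102 and 272 CPM (median 197) in IVF. Naturals 3 and 4 were far below the others, and natural 2 lay within the IVF range. Srebf1 had a log2 fold change of 1.46 ± 0.46 (SE, adjusted p = 0.0226). Scap, the escort of SREBPs, was at 67.7, 142, 75.1, 99.5 and 86.4 CPM in naturals 1 to 5 and between 151 and 223 CPM (median 208) in IVF with no overlap, and its log2 fold change was 1.05. Nr1h3, LXR alpha, was apart as well, with a log2 fold change of 0.60. With the GC trend removed, the log2 fold changes of Srebf2, Srebf1 and Scap were 0.16, 0.52 and 0.08, none past the test, and that of Nr1h3 turned to -0.21. In that fit Nr1h2 and Scarb1, the HDL receptor, were upregulated (0.87 for Scarb1) and 1 of the 22 was downregulated. In the joint fit with mapping rate, Nr1h2 was upregulated and Stard4, a sterol carrier, downregulated (-0.69). Insig1, Insig2, Abca1 and Abcg1 were not DEGs, with log2 fold changes of -0.13, -0.08, -0.43 and -0.33.

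Fatty acid and triglyceride synthesis genes were upregulated for 9 of 21 (42.9%, against 21.6% of all genes) and downregulated for 1 (4.76%, against 17.8%). The median was 0.48. The 9 were Slc25a1, the citrate carrier that feeds the pathway, Acacb and Fasn, acetyl-CoA carboxylase and fatty acid synthase, Mlxipl, the carbohydrate-responsive factor ChREBP, and Agpat1, Agpat2, Lpin3, Dgat1 and Dgat2, which build triglyceride. Fasn was at 125, 135, 78.2, 79.8 and 98.7 CPM in naturals 1 to 5 and between 134 and 331 CPM (median 209) in IVF. The highest natural, natural 2, barely passed the lowest IVF liver. Fasn changed by a log2 fold of 1.03 ± 0.23 (SE, adjusted p = 0.00152). Acacb was at 7.31, 35.1, 45.2, 52.4 and 25.3 CPM in naturals 1 to 5 and between 59.5 and 113 CPM (median 92.1) in IVF, with natural 1 far below the other naturals. For Acacb the log2 fold change was 1.44 ± 0.36 (SE, adjusted p = 0.0056). Slc25a1 was at 81.1, 97.6, 80.8, 80.4 and 89.4 CPM in naturals 1 to 5 and between 113 and 223 CPM (median 178) in IVF. Naturals lay within a narrow range below IVF. Slc25a1 had a log2 fold change of 1.03 ± 0.15 (SE, adjusted p = 7.46e-05). Dgat1, Dgat2 and Agpat2 did not overlap either, with log2 fold changes of 1.03, 0.97 and 0.99. Elovl5, an elongase, fell with a log2 fold change of -0.68. Scd1, the desaturase of oleate synthesis, was at 1486, 1549.8, 1076, 1019 and 789.8 CPM in naturals 1 to 5 and between 56.6 and 2674 CPM (median 900.05) in IVF. It was widely spread in IVF and a difference was not detectable (adjusted p = 0.885). Lpin3 alone passed with the GC trend removed, and the log2 fold changes of Fasn, Slc25a1 and Agpat2 were then 0.12, 0.02 and 0.08. In the joint fit with mapping rate Slc25a1 and Agpat2 passed.

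Lipid droplet genes were upregulated for 8 of 18 (44.4%, against 21.6% of all genes), with a median of 0.83. The 8 were Plin2, Plin3, Cideb, Cidec, Fitm2, Pnpla2, Lipe and Mgll. They coat droplets, fuse them or break triglyceride down. Cideb, which loads triglyceride onto VLDL, was at 6.71, 10.1, 11.9, 7.41 and 8.20 CPM in naturals 1 to 5 and between 17.4 and 28.4 CPM (median 20.99) in IVF. The groups did not overlap. Cideb changed by a log2 fold of 1.34 ± 0.19 (SE, adjusted p = 4.90e-05), and 0.93 with the GC trend removed. Mgll, monoacylglycerol lipase, was at 138, 194, 211, 219 and 172 CPM in naturals 1 to 5 and between 338 and 468 CPM (median 419) in IVF, with a log2 fold change of 1.14 in the main test and 0.46, under 1.5-fold, with the GC trend removed. In that fit Plin3, Cideb, Fitm2 and Lipe passed, and Cideb, Lipe and Mgll passed in the joint fit.

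Phospholipid synthesis genes were upregulated for 9 of 22 (40.9%, against 21.6% of all genes). Another 3 (13.6%, against 17.8%) were downregulated (Chpt1, Crls1 and Agpat5), and the median was 0.35. Pcyt2, the rate-limiting step of phosphatidylethanolamine synthesis, was at 126, 188, 114, 141 and 130.1 CPM in naturals 1 to 5 and between 279 and 388 CPM (median 324) in IVF. Pemt, which methylates that lipid to phosphatidylcholine, had a log2 fold change of 1.11. Chpt1, which makes phosphatidylcholine from choline, was at 169.8, 89.8, 155, 111 and 162 CPM in naturals 1 to 5 and between 52.6 and 75.4 CPM (median 58.3) in IVF, with natural 2 the lowest natural. The log2 fold changes of Pcyt2 and Chpt1 were 1.25 and -1.14, and 0.29 and -0.28 with the GC trend removed. Etnk2, Ptdss2 and Cds2 passed there, all upregulated.

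Apolipoprotein genes were upregulated for 7 of 14 (50%, against 21.6% of all genes) and downregulated for Apob (7.14%, against 17.8%). The 7 were Apoa5, Apoc2, Apoc3, Apoc4, Apoe, Apom and Apon, and the median over the list was 0.63. Apoc4 was at 92.7, 124, 117, 117 and 88.1 CPM in naturals 1 to 5 and between 225 and 328 CPM (median 297) in IVF. All IVF livers were above all naturals. For Apoc4 the log2 fold change was 1.40 ± 0.15 (SE, adjusted p = 1.33e-05), and 1.53 with the GC trend removed. Its transcript held 47.9% GC, and it was called in the main test, with the GC trend removed and in the joint fit, and did not pass with natural 2 as the only natural (adjusted p = 0.0558). Apob, the scaffold of VLDL, was at 6995, 7547, 8424, 8209.8 and 9145 CPM in naturals 1 to 5 and between 3023 and 6778 CPM (median 5006) in IVF. Apob had a log2 fold change of -0.72 ± 0.19 (SE, adjusted p = 0.00543), and -0.23 with the GC trend removed. Apoe, the ligand of remnant receptors, had a log2 fold change of 0.93 that turned to -0.10 with the GC trend removed, and that of Apoa1, the scaffold of HDL, turned from 0.09 to -0.68.

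Glycolysis genes were upregulated for 10 of 20 (50%, against 21.6% of all genes) and downregulated for 1 (5%, against 17.8%). The 10 were Hk1, Pfkl, Tpi1, Gapdh, Pgk1, Pgam1, Eno1, Pklr, Ldha and Khk, and the median over the list was 0.74. Gapdh was at 188, 202, 235, 272 and 188 CPM in naturals 1 to 5 and between 342 and 561 CPM (median 434) in IVF. Every IVF liver was above every natural. Gapdh changed by a log2 fold of 1.03 ± 0.16 (SE, adjusted p = 1.16e-04), and 0.67 with the GC trend removed. Ldha, lactate dehydrogenase A, was at 305, 405, 299, 393 and 315 CPM in naturals 1 to 5 and between 433 and 986 CPM (median 713) in IVF, also apart. For Ldha the log2 fold change was 0.98 ± 0.20 (SE, adjusted p = 9.36e-04), and 0.77 with the GC trend removed. Eno1 and Pfkl, enolase and liver phosphofructokinase, had log2 fold changes of 1.09 and 1.04, and 0.21 and 0.22 with the GC trend removed, which did not pass. With the GC trend removed 3 were upregulated (Gapdh, Pgk1 and Ldha) and 2 downregulated, among them Pkm, a pyruvate kinase, with a log2 fold change of -0.72. In the joint fit Gapdh and Eno1 were upregulated.

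In the pentose phosphate pathway, which makes NADPH, 4 of 8 genes were upregulated (H6pd, Pgls, Pgd and Taldo1) and Rpe was downregulated. These are 50% and 12.5%, against 21.6% and 17.8% of all genes. Pgls was at 7.31, 7.96, 5.08, 7.41 and 5.62 CPM in naturals 1 to 5 and between 18.1 and 43.0 CPM (median 31.96) in IVF. No natural came near the lowest IVF liver. Pgls had a log2 fold change of 2.24 ± 0.21 (SE, adjusted p = 1.33e-05). Pgd was at 11.6, 12.7, 19.8, 14.2 and 18.2 CPM in naturals 1 to 5 and between 21.8 and 28.0 CPM (median 23.5) in IVF, with a log2 fold change of 0.66 and, with the GC trend removed, 0.76. The log2 fold change of H6pd was 1.08 and that of Taldo1 0.91. Both Pgls and Pgd passed with the GC trend removed, and H6pd, Pgls and Taldo1 in the joint fit.

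Gluconeogenesis and glycogen genes were upregulated for 3 of 20 (15%) and downregulated for 1 (5%), with a median of 0.02. Both shares were below the 21.6% and 17.8% of all genes. Gcgr, the glucagon receptor, was at 61.9, 87.4, 59.0, 68.8 and 67.9 CPM in naturals 1 to 5 and between 154 and 239 CPM (median 199.7) in IVF. The groups lay far apart. Gcgr changed by a log2 fold of 1.52 ± 0.15 (SE, adjusted p = 1.33e-05), and 0.64 with the GC trend removed. Slc37a4, the glucose-6-phosphate carrier, was at 46.3, 106, 60.1, 62.5 and 39.0 CPM in naturals 1 to 5 and between 139 and 225 CPM (median 176) in IVF, and natural 2 was the highest natural. For Slc37a4 the log2 fold change was 1.53 ± 0.23 (SE, adjusted p = 9.75e-05). Pcx, pyruvate carboxylase, had a log2 fold change of 1.40. All 3 passed in the joint fit. Gys2, liver glycogen synthase, fell with a log2 fold change of -0.70. The enzymes that fasting controls most did not pass. Pck1 was at 2828, 4123, 2422, 2629 and 1712 CPM in naturals 1 to 5 and between 1087 and 4106 CPM (median 2533) in IVF, and G6pc was at 452, 307, 445, 427 and 231 CPM in naturals 1 to 5 and between 28.7 and 940.1 CPM (median 224) in IVF. IVF 1 had the highest G6pc of all 11, and the lowest was also an IVF liver.

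**Figure D4:**
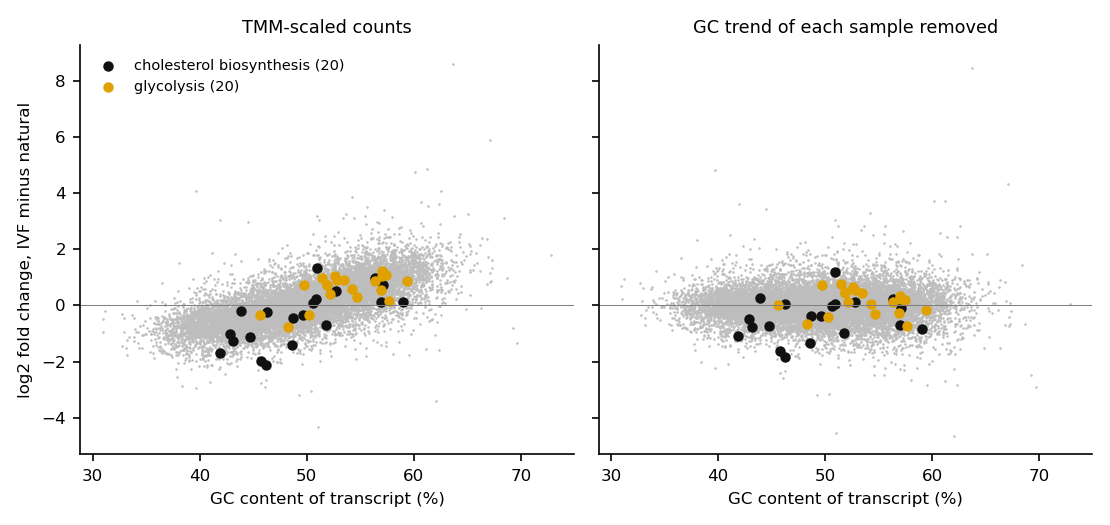
Each point is a gene, with the GC content of its transcript in percent against its log2 fold change, IVF minus natural, for all genes of known GC content (grey), 20 cholesterol synthesis genes (black) and 20 glycolysis genes (yellow). Left are the counts scaled with TMM, where grey points rise with GC content (Spearman's rho 0.71), and right the same after the GC trend of each sample was removed (rho 0.02). Most glycolysis genes lie above 0 on the left, and their median falls from 0.74 to 0.17 on the right, while that of cholesterol synthesis goes from -0.30 to -0.42.

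Insulin and IGF signalling genes were upregulated for 8 of 32 (25.0%) and downregulated for 6 (18.8%), shares near the 21.6% and 17.8% of all genes. Akt1, the kinase below the insulin receptor, was at 24.4, 36.8, 25.4, 24.9 and 28.0 CPM in naturals 1 to 5 and between 58.7 and 84.7 CPM (median 70.6) in IVF, with no overlap. Akt1 had a log2 fold change of 1.36 ± 0.14 (SE, adjusted p = 1.33e-05), and 0.33, under 1.5-fold, with the GC trend removed. Igf1, the growth factor that liver secretes, was at 1517, 1158, 1907, 1658 and 1446 CPM in naturals 1 to 5 and between 526 and 827 CPM (median 659) in IVF, with all IVF livers below all naturals. Igf1 changed by a log2 fold of -1.19 ± 0.17 (SE, adjusted p = 4.72e-05), and -0.37 (adjusted p = 0.0774) with the GC trend removed. Rps6kb1, the S6 kinase, and Rab10, which acts in vesicle traffic, fell with log2 fold changes of -1.08 and -0.81. Eif4ebp1, the translation repressor below mTOR, was the one gene of the 32 to pass with the GC trend removed. In the joint fit 4 were upregulated (Irs2, Akt1, Gsk3a and Eif4ebp1) and 4 downregulated (Igf1, Pik3r1 and Rps6kb1 among them).

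Subunits of the mitochondrial complexes were called in both directions. Of 36 complex I subunits 7 were upregulated (19.4%) and 8 downregulated (22.2%), near the 21.6% and 17.8% of all genes, and 4 and 10 with the GC trend removed. Of 25 subunits of complexes II to IV 7 were upregulated (28%) and 4 downregulated (16%), and 5 and 3 with the GC trend removed. For 16 subunits of the ATP synthase the counts were 6 (37.5%) and 4 (25%), and then 4 and 4. Ndufb11 was at 26.5, 34.5, 42.4, 30.1 and 24.6 CPM in naturals 1 to 5 and between 57.4 and 119.8 CPM (median 101) in IVF, and Ndufb4 at 39.9, 14.1, 43.5, 21.3 and 23.5 CPM in naturals 1 to 5 and between 7.05 and 10.6 CPM (median 8.96) in IVF. Both groups were apart for both genes, with natural 2 the natural nearest to IVF for Ndufb4. The log2 fold changes of Ndufb11 and Ndufb4 were 1.58 and -1.63, and 1.23 and -1.96 with the GC trend removed, and their transcripts held 52.5% and 52.2% GC. The log2 fold change of Cyc1, cytochrome c1, was 1.84, and that of Uqcrb, of the same complex III, -1.49, with 61.4% and 40.4% GC. Of the ATP synthase, Atp5g1, a subunit of the membrane ring, was at 27.4, 40.5, 28.2, 38.3 and 23.3 CPM in naturals 1 to 5 and between 64.5 and 132 CPM (median 90.3) in IVF, and Atp5h, of the stalk, at 346, 158, 332, 279.95 and 280.4 CPM in naturals 1 to 5 and between 92.6 and 128 CPM (median 109) in IVF. Atp5g1 rose and Atp5h fell without overlap. Their log2 fold changes were 1.61 and -1.36, and 1.85 and -1.12 with the GC trend removed, with 46.8% and 46.9% GC. Several of these short genes have processed pseudogenes that can share reads, which makes their counts uncertain.

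Cytosolic ribosomal protein genes were upregulated for 27 of 77 and downregulated for 10, with a median of 0.30. Rps19 was at 21.9, 33.0, 16.9, 26.2 and 18.2 CPM in naturals 1 to 5 and between 50.4 and 72.1 CPM (median 66.7) in IVF, and Rpl23 at 594, 251, 505, 423 and 345 CPM in naturals 1 to 5 and between 173 and 214 CPM (median 186) in IVF. One rose and the other fell, each without overlap, with log2 fold changes of 1.44 and -1.14. After removal of the GC trend 18 of 77 were upregulated and 12 downregulated, against 8.44% and 9.96% of all genes. In the joint fit these counts were 11 and 2, against 8.51% and 7.43% of all genes. Pseudogenes make these counts uncertain as well.

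Fatty acid oxidation and ketogenesis genes were upregulated for 7 of 34 (20.6%, against 21.6% of all genes) and downregulated for 3 (8.82%, against 17.8%), with a median of 0.19. Acads, the short-chain dehydrogenase, was at 38.4, 63.5, 48.6, 49.5 and 36.5 CPM in naturals 1 to 5 and between 111 and 232 CPM (median 186) in IVF, and Acadl, the long-chain one, at 489, 285, 556, 478 and 405 CPM in naturals 1 to 5 and between 182 and 253 CPM (median 199) in IVF. Acads was higher and Acadl lower in every IVF liver than in every natural. For Acads the log2 fold change was 1.91 ± 0.20 (SE, adjusted p = 1.33e-05), and for Acadl it was -1.11 ± 0.16 (SE, adjusted p = 6.07e-05). Ppargc1a, the coactivator PGC-1 alpha, was at 28.6, 18.1, 32.8, 22.4 and 32.01 CPM in naturals 1 to 5 and between 9.40 and 13.4 CPM (median 10.9) in IVF, with a log2 fold change of -1.25. Acaa1a, the peroxisomal thiolase, rose with a log2 fold change of 1.77. Acads, Acaa1a, Ppargc1a and Acadl passed in the main test, with the GC trend removed and in the joint fit. Of 19 genes of the tricarboxylic acid cycle 1 was upregulated (Cs, citrate synthase) and 2 downregulated (Sucla2 and Fh1). These are 5.26% and 10.5%, both below the shares of all genes.

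Genes of bile acid synthesis and transport were upregulated for 5 of 20 (25.0%, near the 21.6% of all genes). They were downregulated for 1 (5%, against 17.8%). Slc27a5, which joins bile acids to CoA, was at 213, 383, 264, 335 and 256 CPM in naturals 1 to 5 and between 575 and 1035 CPM (median 745) in IVF, apart. Slc27a5 had a log2 fold change of 1.42 ± 0.18 (SE, adjusted p = 3.05e-05), and 1.00 with the GC trend removed. In the urea cycle and amino acid breakdown 9 of 28 were upregulated (32.1%, against 21.6% of all genes) and 2 downregulated (7.14%, against 17.8%). Otc, which makes citrulline, was at 641, 358, 779, 608 and 631 CPM in naturals 1 to 5 and between 170.3 and 293 CPM (median 241) in IVF, and fell with a log2 fold change of -1.35, and -0.67 with the GC trend removed. Nags, which makes the activator of the cycle, had a log2 fold change of 1.14, and 0.12, which did not pass, with the trend removed.

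Plasma protein genes were called in both directions. Of 31 acute-phase genes 7 were upregulated (22.6%, near the 21.6% of all genes) and 3 downregulated (9.68%, against 17.8%), and of 30 of complement and coagulation 5 (16.7%) and 8 (26.7%). Hpx, hemopexin, was at 944, 1733, 1440.3, 1525 and 908 CPM in naturals 1 to 5 and between 2742 and 3453 CPM (median 3044) in IVF, and Cp, ceruloplasmin, at 3283, 2333, 3382, 3086 and 2472 CPM in naturals 1 to 5 and between 1113 and 1862 CPM (median 1301) in IVF. Both were apart, in opposite directions, with log2 fold changes of 1.23 and -1.06. F12 and F9, coagulation factors XII and IX, had log2 fold changes of 1.38 and -1.28. C8a and C8b, chains of one complement component and both on the list of male-biased genes, fell with log2 fold changes of -1.13 and -1.05, and -0.88 and -0.94 with the GC trend removed. Orm3, an acute-phase glycoprotein, had a log2 fold change of 1.07.

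Of 24 male-biased liver genes 8 were downregulated (33.3%, against 17.8% of all genes) and 2 upregulated (8.33%, against 21.6%), with a median of -0.66. Of 25 female-biased genes 3 were downregulated (12%) and 2 upregulated (8%), with a median of -0.05. Cux2, a female-specific repressor, was at 29.9, 48.2, 23.7, 25.9 and 23.5 CPM in naturals 1 to 5 and between 50.3 and 111 CPM (median 63.1) in IVF, and natural 2 was the natural nearest to IVF. Cux2 changed by a log2 fold of 1.23 ± 0.24 (SE, adjusted p = 5.85e-04). Elovl3, a male-biased elongase, was low throughout, at 1.22, 0.804, 1.13, 1.58 and 3.10 CPM in naturals 1 to 5 and between 1.94 and 6.90 CPM (median 2.98) in IVF, with a log2 fold change of 1.12. Genes of the Mup family, 3 of which were downregulated, are near-identical copies, so reads could be split between them and their counts are uncertain. The male-biased list had 1 upregulated and 2 downregulated once the GC trend was removed.

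Of 20 cytosolic heat shock genes 7 were downregulated (35%, against 17.8% of all genes) and 3 upregulated (15%, against 21.6%). Hspa4, a nucleotide exchange factor of Hsp70, was at 343, 161, 347, 284 and 271 CPM in naturals 1 to 5 and between 101 and 146 CPM (median 114) in IVF. For Hspa4 the log2 fold change was -1.26 ± 0.18 (SE, adjusted p = 5.15e-05), and -0.99 with the GC trend removed, where it alone of the list passed. Of 25 DNAJC co-chaperones, which stimulate Hsp70, 10 were downregulated (40%, against 17.8% of all genes) and 2 upregulated (8%, against 21.6%). The median over the list was -0.01, as over all genes, with 13 members below 0 and 12 above. With the GC trend removed 7 were downregulated and 1 upregulated, and in the joint fit 3 and 1. Dnajc21, which acts in ribosome assembly, was at 87.8, 39.6, 87.5, 53.2 and 58.5 CPM in naturals 1 to 5 and between 20.3 and 30.2 CPM (median 21.95) in IVF, and natural 2 was the lowest natural. Dnajc21 had a log2 fold change of -1.46 ± 0.19 (SE, adjusted p = 3.17e-05). Of 25 imprinted genes 8 were downregulated (32%, against 17.8% of all genes) and 1 upregulated (4%, against 21.6%), with a median of -0.41. With the GC trend removed 5 of 25 were downregulated, against 9.96% of all genes, and none upregulated by edgeR's test. In the joint fit 2 of 26 were downregulated and 1 upregulated, against 7.43% and 8.51% of all genes. Kcnq1ot1, the long noncoding RNA of an imprinted cluster on chromosome 7, was at 40.8, 13.8, 39.5, 17.0 and 26.5 CPM in naturals 1 to 5 and between 5.88 and 11.6 CPM (median 6.62) in IVF. Naturals 2 and 4 were lowest among naturals, above every IVF liver. Kcnq1ot1 changed by a log2 fold of -1.82 ± 0.28 (SE, adjusted p = 1.22e-04). Slc22a18, which lies in the same cluster, rose with a log2 fold change of 1.35, and Dcn, decorin of the extracellular matrix and also on the list of stellate cell markers, fell with one of -1.07. Kcnq1ot1 was downregulated with the GC trend removed too, with a log2 fold change of -1.09, whereas that of Dcn was -0.21 and did not pass.

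Read against the 21.6% and 17.8% of all genes, the remaining lists were as follows. Circadian clock genes were upregulated for 3 of 18 and downregulated for 2, genes of ER chaperones and the unfolded protein response for 5 and 5 of 28, of DNA replication for 1 and 5 of 22, p53 targets for 6 and 1 of 16, and DNA methylation genes for 1 and 3 of 12. None of the clock and replication genes passed with the GC trend removed by edgeR's test.

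Levels of markers of other cells are given as sums over each list. Summed erythroid markers were at 457 to 754 CPM in naturals and 153 to 376 CPM in IVF, and those of T, B and NK cells at 34.2 to 55.8 CPM and 56.4 to 126 CPM, without overlap in either sum. Single genes carried both sums. Without Hbb-bs the other 6 erythroid markers summed to 115 to 180.2 CPM and 58.5 to 138 CPM, and without Cd74, an antigen presentation gene, the other 9 of T, B and NK cells to 6.31 to 12.1 CPM and 3.56 to 10.6 CPM, both with overlap. Cholangiocyte markers were at 43.9 to 61.6 and 16.9 to 45.8 CPM, Kupffer cell markers at 191 to 436 and 250 to 489 CPM, endothelial markers at 126 to 345 and 161 to 219 CPM, and stellate cell markers at 357 to 465 and 266 to 432 CPM. Periportal hepatocyte markers were at 4649 to 6863 and 4104 to 7381 CPM, and pericentral ones at 10703.5 to 14871 and 6537 to 10976 CPM. Spp1 held 70.3% to 86.1% of the cholangiocyte sum and Cyp2e1 70.4% to 83.6% of the pericentral one. Without Spp1 the other cholangiocyte markers summed to 7.34 to 12.9 CPM in naturals and 3.49 to 13.1 CPM in IVF. Without Cyp2e1 the other pericentral ones summed to 1950 to 2438 and 1785 to 2315 CPM. Summed neutrophil markers did not exceed 3.66 CPM in any library, and 2 of 10 pancreatic acinar markers had 0 counts in all. IVF 1 stood apart in the latter list, since 5 markers (Cela3b, Cpa1, Cpb1, Pnlip and Ctrb1) had counts in that library only, with 112 for Ctrb1. Without Cela1, which every library held, the other 9 summed to 23.4 CPM in IVF 1 and at most 1.18 CPM elsewhere. Leaving out IVF 1 gave 4821 DEGs, of which 4613 were among the 4935. Of 5 non-polyadenylated and nuclear RNAs tested 3 were upregulated (60%, against 21.6% of all genes) and 1 downregulated (20%, against 17.8%). With the GC trend removed 2 of the 5 were upregulated and in the joint fit 1, against 8.44% and 8.51% of all genes. None was downregulated in either fit by edgeR's test. Rmrp, a short RNA without a poly(A) tail, had 0 counts in all naturals and 0.12 to 4.16 CPM in IVF. Rpph1, the RNA of RNase P, was at 19.1 CPM in IVF 5 and at most 4.06 CPM in the other libraries. Nuclear Malat1 was at 577 to 1469 CPM in naturals and 303 to 594 CPM in IVF, and nuclear Neat1 at 25.7 to 70.8 and 88.3 to 128 CPM. The part of these in the results above was not tested.

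The study drew a heatmap of 31 lipid, glucose and mitochondrial genes of these same livers. It was chosen on these samples and is no independent evidence of direction. Of the 31, 11 were upregulated (35.5%, against 21.6% of all genes) and 9 downregulated (29.0%, against 17.8%). With the GC trend removed the counts were 4 and 7, and in the joint fit 2 and 5. Cyp17a1, a steroid hydroxylase and one of the 31, was at 7.92, 8.12, 119, 113 and 13.9 CPM in naturals 1 to 5 and between 16.8 and 270.4 CPM (median 72.2) in IVF. Naturals 3 and 4 were high and the other naturals low, IVF values lay both among and above the naturals, and the change did not pass (adjusted p = 0.375).

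Livers of the sons, 5 naturals and 5 IVF of the same generation and age, were compared in the same way. Total counts of the natural sons ranged from 10391074 to 44069283. IVF 2 and IVF 3 of the sons were far shallower, with 2137355 and 543745 counts. Both also entered the joint fit and the interaction, and the effect of leaving them out was not tested. Among 11973 genes tested there, 1669 (13.9%) were upregulated and 2056 (17.2%) downregulated. Of 11825 genes tested in both sexes 4836 were DEGs in daughters, 3699 in sons and 2917 in both (60.3% of the first and 78.9% of the second). Of these 2917, 2907 had opposite directions and 10 the same. Daughters and sons share no samples. The groups of sons were mapped in the reverse order for all IVF livers but IVF 3, and Spearman's rho between GC content and log2 fold change was -0.60 in sons against 0.71 in daughters. Across genes, rho between the log2 fold changes of the sexes was -0.80. With both sexes in 1 fit, the effect differed between daughters and sons for 6913 of 13073 genes (52.9%), by edgeR's test of the interaction, at the limits used for DEGs. Removing the GC trend gave 4498 such genes and mapping rate as a covariate 3634. Mapping rate and the trend with GC content differed between the groups in opposite directions in the sexes, so the sex of the animals and these measures cannot be told apart.

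All 76 genes called in every fit of the daughters differed from sons by the interaction, and 65 were DEGs of the opposite direction in sons. Over all genes the interaction called 52.9%, and 2907 of 4836 DEGs of daughters were of the opposite direction in sons. The 76 were chosen for changes in daughters that the interaction also uses, so their count there largely follows from the choice. The log2 fold change of Nr1h2 was 1.80 in daughters and -1.53 in sons, that of Tspo 2.80 and -2.10, and that of Smc3 -1.68 and 1.77. The joint fit uses the sons, so the 76 were chosen with values of both sexes in hand. Albumin, Alb, had log2 fold changes of -0.89 and 0.60 in daughters and sons. Scand1, a SCAN domain protein, and Erlec1, an ER lectin, were among the genes of smallest p in the interaction. Scand1 was at 2.44, 2.90, 4.80, 6.31 and 4.07 CPM in naturals 1 to 5 and between 15.95 and 50.1 CPM (median 39.0) in IVF. Its log2 fold change was 3.10 in daughters and -2.48 in sons, a difference of 5.59 ± 0.42 (SE, adjusted p = 1.37e-09). That of Erlec1 was -1.39 and 1.31.

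Of the 20 cholesterol synthesis genes, 12 were downregulated in sons, where 17.2% of all genes were, and none upregulated by edgeR's test. All 20 fold changes there were below 0, with a median of -0.80. In daughters 12 were below 0 and 8 above. Hmgcs1, Sqle and Msmo1 were DEGs in the same direction in both sexes, with log2 fold changes of -1.28 and -0.93, -1.41 and -1.42, and -1.13 and -1.04, 3 of the 10 such genes. Their difference between the sexes was -0.34 ± 0.40, 0.02 ± 0.68 and -0.09 ± 0.46 (log2, SE), with adjusted p of 0.49, 0.984 and 0.885. These errors are too large to show that the sexes were alike. The interaction called 10 of the 20, a share near the 52.9% of all genes. Cyp51 fell in daughters and had a log2 fold change of -0.18 in sons, a difference of -1.92 ± 0.46 (adjusted p = 0.00129). Tm7sf2 and Mvk rose in daughters and fell in sons, with log2 fold changes there of -2.16 and -1.34. Fdps, Mvd and Dhcr7 did not pass in daughters and fell in sons, with log2 fold changes of -1.92, -1.89 and -1.62. Orm3, one more of the 10 and named after its values were seen, had log2 fold changes of 1.07 and 2.61.

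The other lists were counted in sons too, where 13.9% of all genes were upregulated and 17.2% downregulated. Sterol sensing genes were downregulated for 10 of 22 in sons, with log2 fold changes of -1.50 for Srebf2 and -1.19 for Scap, and glycolysis genes for 8 of 19, with a log2 fold change of -0.97 for Gapdh. Lipid droplet genes were downregulated for 7 of 17, with a log2 fold change of -1.14 for Cideb. Igf1 rose in sons with a log2 fold change of 0.98 and Ppargc1a with one of 1.71, while both fell in daughters. Heat shock genes were upregulated for 11 of 20 in sons, with a log2 fold change of 1.32 for Hspa4.

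**Figure D5:**
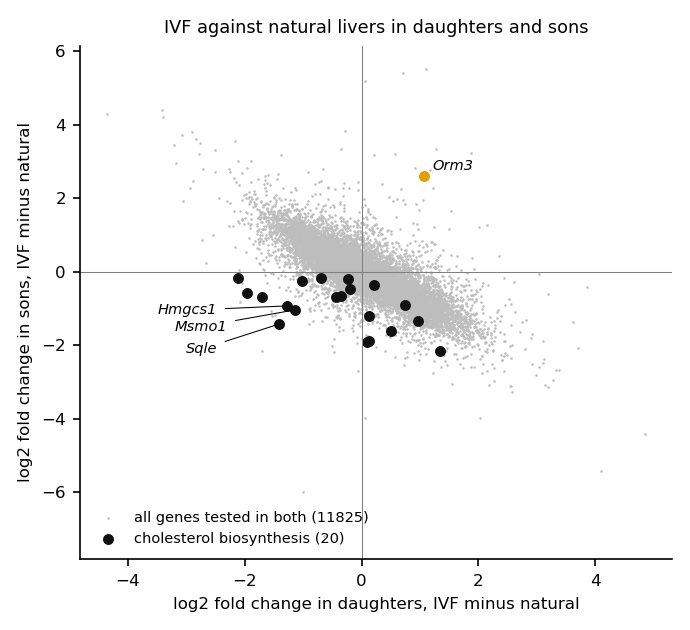
Each point is 1 of 11825 genes tested in both sexes, with its log2 fold change, IVF minus natural, in daughters against that in sons. Grey points run from upper left to lower right (Spearman's rho -0.80). The 20 cholesterol synthesis genes (black) all lie below 0 in sons, and Hmgcs1, Sqle and Msmo1 lie below 0 in both sexes with Orm3 (yellow) above 0 in both.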

How the data were processed

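RNA-Seq libraries of the 11 livers were made by the authors with a stranded mRNA kit. Per the submitters' processing notes, reads were trimmed with Trimmomatic 0.32, aligned to mm10 with STAR 2.3.0e and counted per gene with featureCounts 1.5.0. The deposited table holds raw read counts per gene symbol, not normalised. Most low counts were even numbers (75.9% to 90.2% of the values from 2 to 50 in a library), as when both mates of a pair are counted. Which of the sequencers used read each library is not given in the sources used here.

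Samples were grouped by their labels. Genes were kept with filterByExpr and tested in R 4.3.3 with edgeR 4.0.16 (TMM, robust quasi-likelihood fit, Benjamini-Hochberg adjustment). DEGs changed over 1.5-fold with an adjusted p below 0.05. The same limits were used for DESeq2 1.42.0 and the other settings. GC content and length came from annotation of GRCm38, which gave values for 97.5% of the genes tested. The GC trend of each sample was removed as an offset from a lowess curve (span 0.3). Mapping rates came from the read statistics of the study and served as a covariate or a limit. The joint fit held the livers of both sexes, with sex, conception, their interaction and mapping rate. The natural 2 fit kept that library and all IVF livers. Scripts were tested on simulated data. The deepest libraries give the smallest counting error. The shallowest of the daughters had 3947645 counts, and IVF 2 and IVF 3 of the sons had fewer. A floor of 3 counts covers counting error only.

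Named genes were the 10 of smallest p in each direction with groups apart, the 10 in each direction called in all 5 fits, the leading genes of each list, those of the interaction, and all of cholesterol synthesis and sterol handling that the text discusses. Lists, members and tests were chosen with earlier results of these data known. The closing part gives the effect of other scalings, filters, a replicate block, a surrogate variable (sva 3.50.0) and leaving out each library. Embryonic, testis and ovary libraries were not used here. Some members of the gene lists are counted with their list and are not reported here by name.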

Additional observations from a re-analysis of the deposited data

Results flagged for a closer look

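The effect of conception differed between the livers of daughters and sons for 6913 of 13073 genes (52.9%) by edgeR's test of the interaction. It differed for 107 of the 130 genes named, which were chosen by their changes in daughters and partly by this test. Mapping rate and the trend with GC content ran in opposite directions between the groups in the sexes, and their part was not tested.

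In 11 of 264 groups of 5 or 6 samples tested over the named genes, 1 sample stood apart from the rest by Dixon's criterion, which chance meets in about 1 group in 20. Natural 2 was the sample in 4 of them, low for Nab1 (101.5 CPM) and Uqcrb (130.8 CPM) and high for Insig1 (141.8 CPM) and Cux2 (48.2 CPM). Natural 5 was low for Hmgcs1 (149.7 CPM). IVF 1 was low for Mvk (4.65 CPM) and high for G6pc (940.1 CPM). IVF 2 was low for Tm7sf2 (29.7 CPM) and F12 (470.2 CPM) and high for Acadl (253.1 CPM) and C8b (190.2 CPM).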

How the results depend on the processing

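The 4935 DEGs of the main test became 1322 with mapping rate as a covariate, 2246 with the GC trend removed, 2083 in the joint fit of both sexes with mapping rate and 157 with natural 2 as the only natural. Counts within 1.5 times came from DESeq2's size factors (4931), DESeq2's Wald test (5376), no filter (5007), a minimum of 10 counts in every sample (3917 of 9070 genes), livers mapped at 60% or more (4312), counts halved (4849) or thinned to equal depth (4453), removal of the trend with transcript length (4694), a surrogate variable (4985) and no fold limit (6134). Leaving out each library gave 4443 to 5282. With a replicate block there were 4275, of which 4156 were among the 4935, but same-numbered samples had correlations of their deviations of 0.02, -0.22, 0.08, 0.01 and 0.17, so the numbers do not pair them. Chosen after seeing the data, leaving out the 3 deepest libraries (natural 5, IVF 5 and IVF 6) gave 3634, and total counts without TMM factors gave 5030, of which 79.5% were upregulated against 54.7% in the main test, with the median of all genes moved to 0.31. Calls of the interaction became 3634 with mapping rate as a covariate and 4498 with the GC trend removed, and 6635 to 7028 without each library. The difference in log2 total counts was 1.32 to 2.15 without each library and passed without natural 5 (2.15, two-sided exact permutation test, p = 0.0143). With the GC trend removed, the log2 fold changes of Mvd (-0.83), Nr1h3 (-0.21), Apoe (-0.10) and Apoa1 (-0.68) turned. The cause was not tested. Of the 109 named DEGs, 44 were lost in the same direction with the GC trend removed, 48 with mapping rate as a covariate, 33 in the joint fit and 86 with natural 2 as the only natural, where 1 sample stands for its group.

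The shallowest naturals, 1 and 3, had 3947645 and 4248128 counts, so changes of genes of low count were less detectable than in the deeper IVF libraries.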
